A study of Rattus norvegicus with 125 samples.

Results

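The intercalated cell gene set comprises 10 rat genes, picked by symbol because they are used to tell type A from type B intercalated cells of the kidney. They are the anion exchangers Slc4a1, Slc26a7, Slc4a9 and Slc26a4, the receptor Insrr, the transcription factors Foxi1, Hmx2 and Hmx3, and the ammonia channels Rhcg and Rhbg. All 10 of 10 were found, each with 1 transcript entry, among the 17144 gene symbols of the tables. RNA was sequenced from renal tubule segments that had been dissected by hand, after collagenase digestion, from the kidneys of male Sprague-Dawley rats of 200 to 250 g on normal chow. The 125 samples hold libraries of 14 tubule segments, 5 libraries of glomeruli and 8 of cortical collecting ducts from a water-load experiment. The 7 samples of polyadenylation-site sequencing were not analysed here. The 5 distal segments are the distal convoluted tubule (DCT, n = 8), the connecting tubule (CNT, n = 6) and 3 stretches of collecting duct, in the cortex (CCD, n = 11), the outer medulla (OMCD, n = 7) and the inner medulla (IMCD, n = 8). Upstream of them lie the proximal tubule (S1, S2 and S3), the descending thin limbs of short loops (SDL) and of long loops (LDLOM and LDLIM), and the thin, medullary thick and cortical thick ascending limbs (tAL, mTAL and cTAL). In the water-load experiment, 4 rats received 50 mL of water a day in gelled food for 4 days and 4 control rats received 25 mL a day. All 8 were 5 weeks old and carried minipumps with the vasopressin analog ddAVP, at 5 ng/h, so the controls were also under the hormone. Nothing in the labels says that the numbered replicates of 1 segment came from different rats, so p-values for segments measure the spread between libraries, which may be technical.

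Intercalated cells are the acid-base cells of the connecting tubule and collecting duct, where they lie between the more numerous principal cells. Type A cells secrete acid through an apical proton pump and return bicarbonate to the blood through the basolateral exchanger encoded by Slc4a1. Type B cells secrete bicarbonate through the apical exchanger pendrin, the product of Slc26a4, and are typical of the cortex, whereas type A cells extend through the outer medulla. Each library holds a whole piece of tubule with all its cells, so fewer cells of a type and less RNA per cell cannot be told apart.

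Levels are given in RPKM, a read number divided by transcript length and by the library's reads. The tables hold no counts, and the tubule libraries had between 1438 and 8574 genes at 1 RPKM or more. OMCD was sparser than its neighbours, with 2517 to 7202 such genes against 4210 to 8414 in CCD, and 14 tubule libraries had fewer than 2500. The low values of the 10 genes fell on multiples of 0.5 of 1 smallest step (all 146 values under 20 steps, tolerance 0.025 of a step). In the distal libraries whose depth could be placed, that step was worth at most 0.0430 RPKM for Rhbg and 0.00876 RPKM for Slc4a1. The segments carried their defining genes, with Slc12a3, the thiazide-sensitive cotransporter, at a median of 302 RPKM in DCT and Aqp2, the water channel of principal cells, at medians between 4240 and 6776 RPKM from CNT to IMCD.

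Across the nephron, 9 of the 10 genes were higher in CNT, CCD and OMCD together than in the 10 segments from S1 to DCT. Of all 11078 genes tested, 7.24% were higher in this comparison and 3.22% lower, 10.5% in all, a call being an adjusted p under 0.05 in limma with a difference of at least 1 on the log2(RPKM + 1) scale. The differences ran from 1.52 ± 0.17 for Hmx3 (SE; adjusted p = 1.1e-12) to 6.85 ± 0.39 for Rhbg (adjusted p = 3.4e-31), with a median of 5.40 over the 10 genes against 0.13 over all genes tested. Slc26a7 missed the size limit at 0.93 ± 0.22 (adjusted p = 9.0e-04) and passed it, at 1.82, only with a pseudocount of 0.1 in place of 1. In the second deposited table, made without polyadenylation-site data, Hmx3 lost the call at 0.37 (adjusted p = 0.0115).

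**Figure D1:**
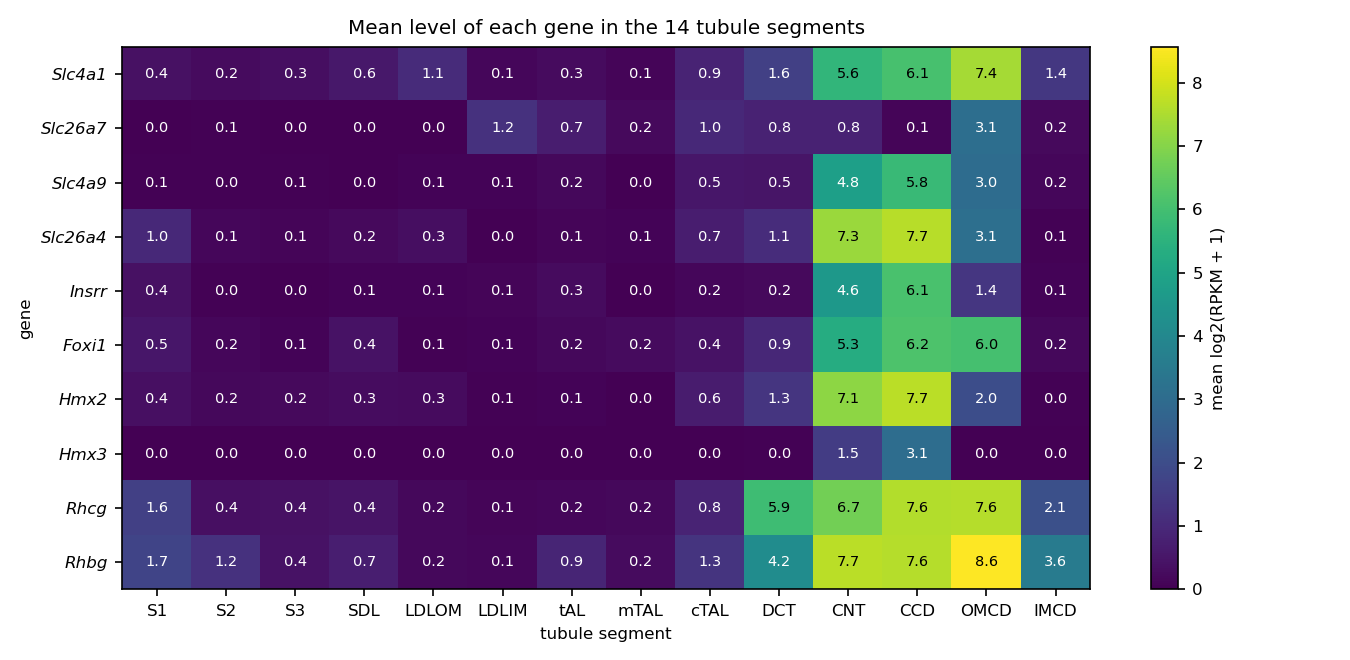
Mean log2(RPKM + 1) of the 10 genes (rows) in the 14 tubule segments (columns, along the nephron), each number being the mean over the libraries of a segment. Values above 4 occur in CNT, CCD and OMCD and, for Rhcg and Rhbg, also in DCT.

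Glomeruli, where no intercalated cells are known, held little of any of the 10 genes. The highest values in 5 libraries were 3.28 RPKM of Slc4a1 and 3.09 RPKM of Rhcg, and Hmx3 was listed at 0 in all 5. The Slc4a1 value was that of replicate 2, which also held 6724 RPKM of Hbb, a red cell gene. In the 65 libraries from S1 to cTAL 28 of 650 values were above the glomerular maximum of 3.28 RPKM, in 14 libraries. Among them were Rhbg at 38.6 and 31.4 RPKM in S1 replicates 3 and 6 and at 24.5 RPKM in tAL replicate 6, Rhcg at 16.3 RPKM in S1 replicate 3 and Slc4a1 at 12.9 RPKM in cTAL replicate 3. In LDLOM replicate 1 Slc4a1 stood at 550.7 RPKM, the highest value of all tubule libraries, while the other 8 LDLOM libraries had at most 0.229 RPKM. The other 9 genes of the set were listed at 0 in that library. Of other intercalated cell genes, Car15 reached 1149, Gpr116 94.2 and Atp6v0a4 69.7 RPKM in LDLOM, at medians of 0.108, 0.35 and 0.0985 RPKM. Kit and Tfcp2l1 reached 12.3 and 10.1 RPKM, at medians of 0.00815 and 0.14 RPKM. Car2 and Jag1 had higher LDLOM medians, 865 and 23.3 RPKM. Aqp6, Atp6v1b1, Hepacam2 and Atp6v1g3 reached at most 0.193, 1.44, 1.32 and 4.965 RPKM in LDLOM. The other genes of that list are not given here. Which LDLOM library held these maxima was not looked at. Slc4a1 also encodes the anion exchanger of red cells. Of 8 red cell genes in the table, a list added after this value was seen, 7 were listed at 0 there (Hbb, Hbb-b1, Alas2, Ahsp, Epb42, Gata1 and Klf1) and Hba1 was at 0.236 RPKM. LDLOM replicate 1 was sparse, with 1611 genes at 1 RPKM or more, and the part of red cells in its Slc4a1 value was not tested. Without it the Slc4a1 difference of CNT, CCD and OMCD from the upstream segments was 5.93, against 5.82 with it.

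Between neighbouring segments 8, 1, 6 and 8 of the 10 genes were called at the 4 boundaries, in order from DCT to IMCD. From DCT to CNT, 8 of 10 were higher in CNT and 0 lower, where 0.885% of all genes tested were higher and 1.26% lower, 2.15% in all. From CNT to CCD, 1 of 10 was called, as higher in CCD, where 0.0181% of all genes were higher and 0.0542% lower, 0.0722% in all. From CCD to OMCD, 5 were lower and 1 was higher in OMCD, where 1.22% of all genes were lower and 0.0812% higher, 1.30% in all. From OMCD to IMCD, 8 were lower and 0 higher in IMCD, where 0.993% of all genes were lower and 6.48% higher, 7.47% in all. Quantile normalization shifted these backgrounds: of all genes called, 26 of 47 were then higher in OMCD than in CCD (9 of 144 without it), and 333 of 566 higher in IMCD than in OMCD (718 of 828 without it). In CCD against CNT 1 of 15 was then higher (2 of 8 without it), and in the upstream comparison 564 of 1080 (802 of 1159 without it). The median of all genes tested was itself off 0, at -0.10 in CNT minus DCT, 0.31 in CCD minus CNT, -0.59 in OMCD minus CCD and 0.55 in IMCD minus OMCD. With a pseudocount of 0.1 in place of 1 the called differences of genes with libraries near 0 were over 1.5 times as large, such as 6.77 for Insrr in CNT minus DCT, 5.63 for Slc26a7 and -5.89 for Hmx3 in OMCD minus CCD, and -4.81 for Slc4a9, -4.98 for Slc26a4 and -5.21 for Slc26a7 in IMCD minus OMCD. The medians over the 10 genes were 4.18, 0.70, -1.45 and -2.96 in the same 4 comparisons.

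**Figure D2:**
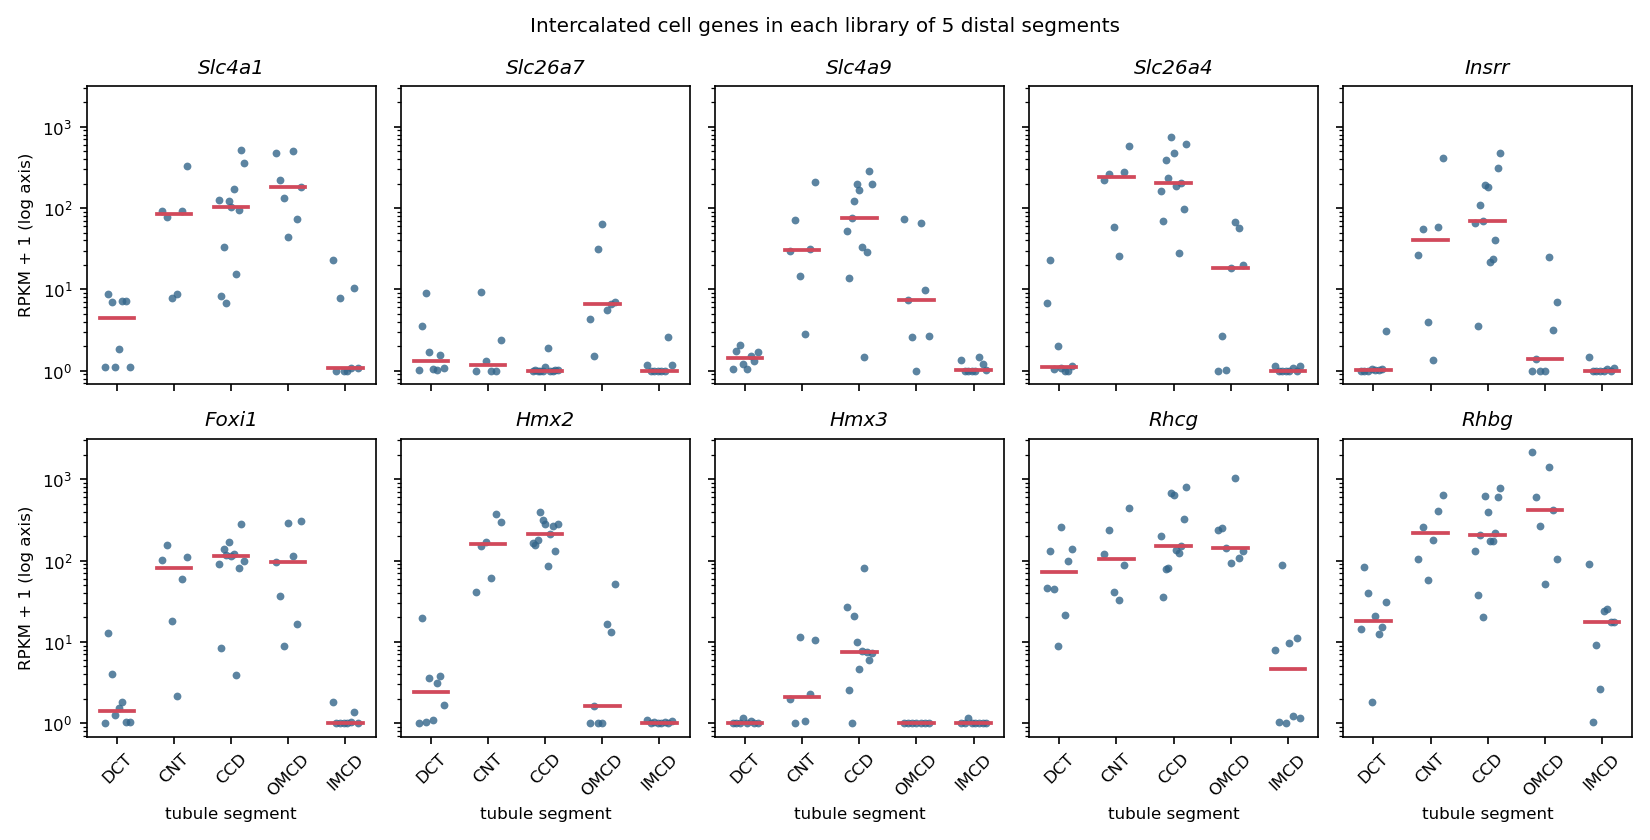
RPKM + 1 (log axis) of the 10 genes in every library of 5 distal segments, with a bar at the segment's median. Slc4a9, Slc26a4, Insrr, Hmx2 and Hmx3 peak in CNT and CCD, whereas Slc4a1, Foxi1, Rhcg and Rhbg stay high in OMCD.

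Slc4a1, the basolateral chloride-bicarbonate exchanger of type A cells, had 0.0993, 3.38 and 7.65 RPKM as the lowest, median and highest of the DCT libraries. The same 3 values were 6.92, 83.5 and 325 RPKM in CNT, 5.75, 103 and 515 RPKM in CCD, and 42.6, 182 and 500.0 RPKM in OMCD. In IMCD they were 0, 0.0678 and 22.1 RPKM. CNT and DCT overlapped slightly, at 6.92 RPKM in the lowest CNT library against 7.65 RPKM in the highest DCT library. Every IMCD library was below every OMCD library, which held for 0.307% of all genes tested. Slc4a1 was 4.02 ± 0.87 higher in CNT than in DCT on the log2 scale (adjusted p = 0.0012) and 6.03 ± 0.83 lower in IMCD than in OMCD (log2 difference -6.03; adjusted p = 1.1e-08). Between OMCD and CCD it differed by 1.33 ± 0.78, within the spread (adjusted p = 0.34), and between CCD and CNT by 0.45 ± 0.81 (adjusted p = 1). Ordered by mean log2 level the segments ran OMCD, CCD, CNT, DCT, IMCD, and the step from CNT to DCT was the only one in the whole order of 14 that exceeded the spread of its 2 segments.

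Slc26a7, the second basolateral anion exchanger of type A cells, is known from the outer medullary collecting duct and was low everywhere else. Its lowest, median and highest values in OMCD were 0.505, 5.55 and 62.4 RPKM. In CCD 6 of 11 libraries were listed at 0 and the highest had 0.904 RPKM, and in IMCD 5 of 8 were at 0 and the highest had 1.62 RPKM. The OMCD libraries thus overlapped those of CCD and IMCD by their lowest value only. The gene was 2.99 ± 0.44 higher in OMCD than in CCD (adjusted p = 4.6e-07) and 2.86 ± 0.47 lower in IMCD than in OMCD (log2 difference -2.86; adjusted p = 1.8e-06). Between CNT and DCT it differed by -0.02 ± 0.49 (adjusted p = 1). Outside OMCD the highest libraries were 1 of 4 in LDLIM, at 27.8 RPKM with the other 3 at or below 0.00738 RPKM, 1 of 6 in CNT, at 8.26 RPKM, and 1 of 7 in cTAL, at 8.05 RPKM. Its level rests on the table used: the OMCD mean was 16.1 RPKM in the table made with polyadenylation-site data and 4.91 RPKM in the other, and the CNT means were 1.66 and 0.00134 RPKM. In the second table the difference of OMCD from CCD was 1.61 and that of IMCD from OMCD -1.55, both still called.

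Slc26a4, which encodes pendrin, was the most abundant of the type B exchangers, with 24.4, 241 and 587 RPKM as the lowest, median and highest CNT values. The 3 values were 26.8, 203 and 743 RPKM in CCD, 0, 17.4 and 65.6 RPKM in OMCD, and 0, 0 and 0.150 RPKM in IMCD. In DCT 6 of 8 libraries were at or below 1 RPKM and the highest had 22.1 RPKM. Every CNT library was above every DCT library, which held for 0.262% of all genes tested. OMCD met CCD only where 2 OMCD libraries, at 56.6 and 65.6 RPKM, stood above the lowest CCD library. The gene was 6.20 ± 0.71 higher in CNT than in DCT on the log2 scale (adjusted p = 3.8e-11), 4.54 ± 0.64 lower in OMCD than in CCD (log2 difference -4.54; adjusted p = 1.5e-07) and 3.06 ± 0.68 lower in IMCD than in OMCD (log2 difference -3.06; adjusted p = 7.9e-04). CCD and CNT differed by 0.38 ± 0.67 (adjusted p = 1). In its order of levels CCD and CNT were within their spread, and the step from CNT down to OMCD, 4.15 on the log2 scale, was the only one beyond it.

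Slc4a9, a basolateral anion exchanger of type B cells, had 1.82, 29.5 and 206 RPKM as the lowest, median and highest CNT values and 0.472, 73.5 and 287 RPKM in CCD. The values were 0.0558, 0.424 and 1.04 RPKM in DCT, 0, 6.49 and 71.9 RPKM in OMCD, and 0, 0.0167 and 0.466 RPKM in IMCD. All CNT libraries lay above all DCT libraries (0.262% of all genes). In OMCD 2 libraries, replicates 1 and 5, came near the CCD median, at 71.9 and 64.0 RPKM, with the other 5 at or below 8.88 RPKM. The differences were 4.35 ± 0.65 in CNT against DCT (adjusted p = 3.1e-07), -2.78 ± 0.58 in OMCD against CCD (adjusted p = 0.0019) and -2.87 ± 0.62 in IMCD against OMCD (adjusted p = 4.9e-04). The OMCD call was lost when CCD and OMCD were fitted without the other segments, at the same difference (adjusted p = 0.115). Of the type B exchangers Slc26a4 was above Slc4a9 in 6 of 6 CNT and 10 of 11 CCD libraries, but in 4 of 7 OMCD libraries.

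Insrr encodes the insulin receptor-related receptor, a tyrosine kinase activated by alkaline fluid outside the cell. It had 0.342, 39.4 and 408 RPKM as the lowest, median and highest CNT values, 2.57, 68.5 and 475 RPKM in CCD, and 0, 0.392 and 24.1 RPKM in OMCD. DCT libraries had at most 0.0602 RPKM apart from replicate 8, at 2.09 RPKM, and IMCD libraries at most 0.476 RPKM. CNT was higher than DCT by 4.34 ± 0.64 (adjusted p = 2.9e-07) and OMCD was lower than CCD by 4.76 ± 0.58 (log2 difference -4.76; adjusted p = 8.5e-10). The further difference of IMCD from OMCD, -1.27 ± 0.62, did not pass (adjusted p = 0.22). The difference of CCD from CNT, 1.55 ± 0.60 (adjusted p = 0.95), was 0.72 without CNT replicate 4 and 2.37 without CNT replicate 6.

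**Figure D3:**
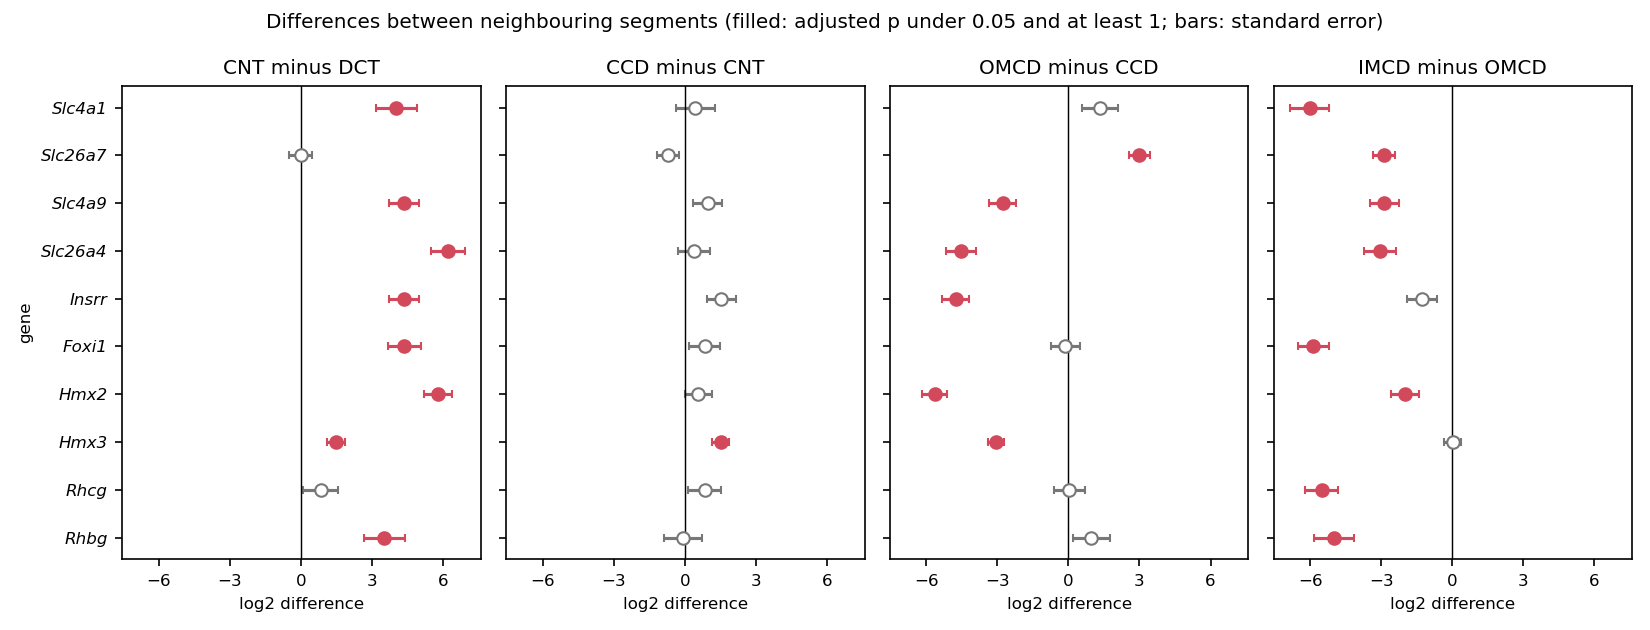
Log2 differences, on the log2(RPKM + 1) scale, of each gene (rows) between neighbouring segments (panels), with standard errors as bars; filled points passed an adjusted p under 0.05 and a size of at least 1. In OMCD minus CCD the points of Slc4a9, Slc26a4, Insrr, Hmx2 and Hmx3 lie left of 0, that of Slc26a7 lies at 2.99, and those of Slc4a1, Foxi1, Rhcg and Rhbg are open.

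Foxi1, the forkhead transcription factor without which mice form no intercalated cells, had 1.14, 79.2 and 154 RPKM as the lowest, median and highest CNT values. The values were 2.92, 112 and 284 RPKM in CCD, 7.92, 94.1 and 302 RPKM in OMCD, 0, 0.399 and 11.9 RPKM in DCT, and 0, 0.00936 and 0.825 RPKM in IMCD. The ranges of CNT, CCD and OMCD covered each other, and every IMCD library was below every OMCD library (0.307% of all genes). Foxi1 was higher in CNT than in DCT by 4.37 ± 0.70 (adjusted p = 2.5e-06) and lower in IMCD than in OMCD by 5.86 ± 0.67 (log2 difference -5.86; adjusted p = 1.1e-11). Between OMCD and CCD it differed by -0.13 ± 0.63 (adjusted p = 0.98).

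Hmx2, a homeobox transcription factor best known from inner ear development in mice, had 40.1, 159.8 and 369 RPKM as the lowest, median and highest CNT values and 83.7, 211 and 392 RPKM in CCD. In OMCD they were 0, 0.645 and 50.7 RPKM, in DCT 0, 1.39 and 18.8 RPKM and in IMCD 0, 0.0121 and 0.0987 RPKM. Every OMCD library lay below every CCD library, which held for 0.108% of all genes tested, and every CNT library above every DCT library, which held for 0.262%. In the second table CNT and DCT overlapped, at 4.81 RPKM in the lowest CNT library against 36.4 RPKM in the highest DCT library. The differences were 5.79 ± 0.60 in CNT against DCT (adjusted p = 5.5e-13) and -5.65 ± 0.54 in OMCD against CCD (adjusted p = 3.2e-14). In IMCD against OMCD it fell by 2.00 ± 0.58 (adjusted p = 0.016), a call that needed the 3 OMCD libraries at 12.2 RPKM or more: it was lost without replicate 5 (-1.66, adjusted p = 0.061), replicate 6 (-1.71, adjusted p = 0.063) or replicate 7 (-1.39, adjusted p = 0.14).

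Hmx3, the neighbouring homeobox gene on the same chromosome, was present at far lower values, with 0, 1.12 and 10.4 RPKM as the lowest, median and highest CNT values and 0, 6.49 and 79.2 RPKM in CCD. It was listed at 0 in all 7 OMCD libraries and in 7 of 8 IMCD libraries, and the highest DCT library had 0.168 RPKM. OMCD was lower than CCD by 3.05 ± 0.34 (log2 difference -3.05; adjusted p = 1.7e-11). CNT was higher than DCT by 1.49 ± 0.38 (adjusted p = 0.0095), a call lost without CNT replicate 3 (1.09, adjusted p = 0.16) or CNT replicate 6 (1.11, adjusted p = 0.12), with quantile normalization (1.16, adjusted p = 0.092) and in the second table (0.37, adjusted p = 0.69). CCD was higher than CNT by 1.53 ± 0.35 (adjusted p = 0.048), the only difference of the set at that boundary. That last call was lost under 6 of 8 other settings and without any 1 of 9 single libraries (CNT replicates 1, 2, 4 and 5 and CCD replicates 1, 4, 5, 8 and 11; differences of 1.20 to 1.54). Values of Hmx3 also differed between the deposited tables: the CCD mean was 14.8 RPKM, with 10 of 11 libraries at 1 RPKM or more, in the table made with polyadenylation-site data, and 1.24 RPKM, with 4 of 11, in the other. In the second table OMCD minus CCD was -0.73 (adjusted p = 0.059). For Hmx2 the first table gave about 0.549 of the second table's CCD mean (223 against 406 RPKM), for Foxi1 0.759 and for Slc4a1 an equal mean.

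Upstream sequences were read from RefSeq's rat assembly GRCr8, 250 bases before the annotated start of each gene, and were present for 7 of the 10 genes: Slc4a9, Slc26a4, Foxi1, Hmx2, Hmx3, Rhcg and Rhbg. For Slc4a1, Slc26a7 and Insrr none was used. Both strands were searched for the forkhead motif TGTTTAC and its looser form TGTTTNC, which contains the first as a special case, and, after the sequences had been read, for the core of the TATA box, TATAAA. The strict forkhead motif was in 0 of the 7 windows and in 3.21% of 33469 rat promoters of the same length. The looser form was in 1 of 7, against 18.3% of promoters, and the TATA core in 2 of 7, against 12.9%. The windows of Hmx2 and Slc26a4 are shown as the pair with the most alike pattern over libraries, and that of Rhbg for its forkhead match. Hmx2 (chr1:195749034-195749283, plus strand) has the TATA core from base -39 to base -34 before the start, in capitals. Rhbg (chr2:176015150-176015399, minus strand) has GGAAACA, a match to the looser forkhead form on the other strand, from base -136 to base -130, also in capitals. Slc26a4 (chr6:53873217-53873466, minus strand) has no match to any of the 3 motifs.
Hmx2: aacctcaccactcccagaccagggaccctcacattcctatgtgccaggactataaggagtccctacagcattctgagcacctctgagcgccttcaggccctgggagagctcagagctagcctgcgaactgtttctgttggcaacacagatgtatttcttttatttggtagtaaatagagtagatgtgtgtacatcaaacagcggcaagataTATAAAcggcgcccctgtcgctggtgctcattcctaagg
Slc26a4: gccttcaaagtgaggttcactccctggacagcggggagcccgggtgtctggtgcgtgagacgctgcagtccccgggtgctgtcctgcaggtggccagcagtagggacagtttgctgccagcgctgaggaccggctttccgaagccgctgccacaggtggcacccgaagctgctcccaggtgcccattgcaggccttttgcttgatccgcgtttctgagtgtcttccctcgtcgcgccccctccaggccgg
Rhbg: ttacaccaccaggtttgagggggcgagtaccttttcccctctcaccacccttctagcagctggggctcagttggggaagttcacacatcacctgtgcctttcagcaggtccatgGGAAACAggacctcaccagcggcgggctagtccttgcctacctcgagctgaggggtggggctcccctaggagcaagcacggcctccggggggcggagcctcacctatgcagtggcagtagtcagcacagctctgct
All are written 5′ to 3′ along the gene, ending at the base before the start. The other TATA core, at bases -35 to -30, is that of Slc4a9. A match is a description of letters, and the expression tables used the older build rn5.

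Rhcg, an ammonia channel of the apical and basolateral membranes in type A cells and in cells that are not intercalated, was already high in DCT. Its lowest, median and highest values were 8.00, 70.9 and 255 RPKM in DCT, 31.6, 104 and 447 RPKM in CNT, 34.9, 149.7 and 795 RPKM in CCD and 93.1, 141 and 1023 RPKM in OMCD. In IMCD they were 0, 3.63 and 88.2 RPKM, every library below every OMCD library (0.307% of all genes). In the second table IMCD and OMCD overlapped, at 132 RPKM in the highest IMCD library against 100.4 RPKM in the lowest OMCD library. CNT and DCT overlapped widely and differed by 0.83 ± 0.75 (adjusted p = 0.86), and OMCD and CCD by 0.04 ± 0.67 (adjusted p = 1). IMCD was lower than OMCD by 5.52 ± 0.71 (log2 difference -5.52; adjusted p = 1.4e-09). In the order of levels DCT stood with OMCD, CCD and CNT, and the only step beyond the spread was that from DCT to IMCD, 3.82 on the log2 scale.

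Rhbg, the basolateral ammonia channel, reached the highest values of the set, with 51.1, 418 and 2159 RPKM as the lowest, median and highest OMCD values. The values were 0.810, 17.0 and 82.4 RPKM in DCT, 56.1, 218 and 641 RPKM in CNT, 19.0, 203 and 789 RPKM in CCD, and 0.0244, 16.6 and 88.8 RPKM in IMCD. DCT and IMCD libraries thus covered nearly the same range, and each overlapped its neighbour in a few libraries. CNT was higher than DCT by 3.51 ± 0.86 (adjusted p = 0.0068), which at a like size, 3.68, did not pass with 0.1 in place of 1 as pseudocount (adjusted p = 0.17), and IMCD was lower than OMCD by 4.99 ± 0.83 (log2 difference -4.99; adjusted p = 2.7e-06). Rhbg was below Rhcg in 8 of 8 DCT libraries, and above it in 5 of 6 CNT, 6 of 11 CCD, 5 of 7 OMCD and 7 of 8 IMCD libraries.

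The balance of the type A and type B exchangers differed between cortex and medulla within single libraries. Slc4a1 was above Slc26a4 in 0 of 6 CNT libraries, 1 of 11 CCD libraries and 7 of 7 OMCD libraries. The exception in CCD was replicate 10, with 515 RPKM of Slc4a1 and 97.3 RPKM of Slc26a4. The closest OMCD library was replicate 6, with 72.5 RPKM of Slc4a1 and 56.6 RPKM of Slc26a4. In IMCD Slc4a1 was above in 3 of 8 libraries, replicates 1, 3 and 7, at 22.1, 6.84 and 9.50 RPKM, while no IMCD library had over 0.150 RPKM of Slc26a4. Since both values of a pair come from 1 library, its depth and size scale them alike; no test was made of these counts.

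**Figure D4:**
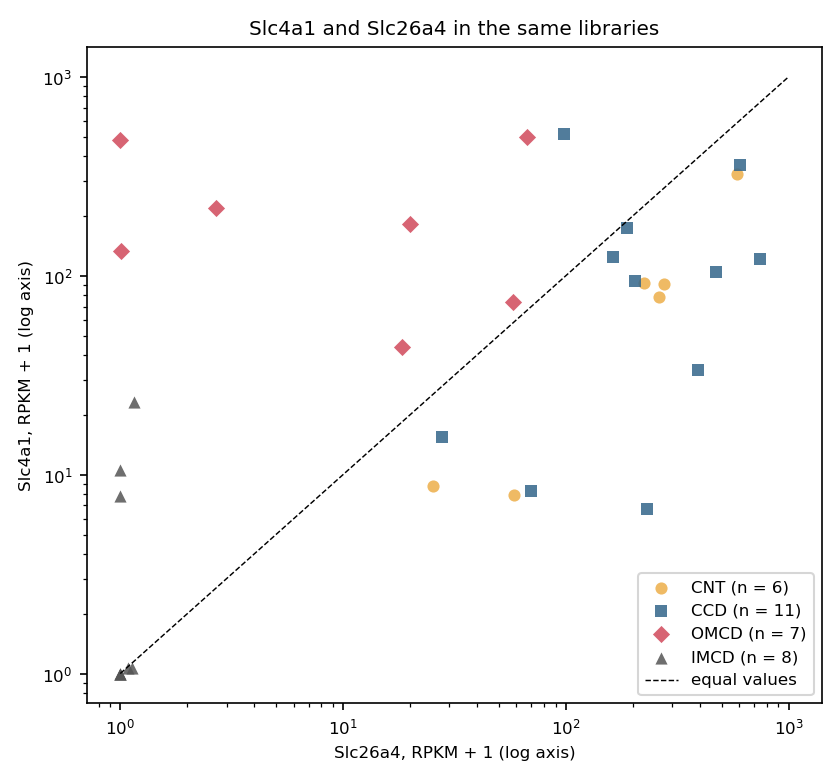
Slc4a1 (vertical) against Slc26a4 (horizontal), both as RPKM + 1 on log axes, with 1 point per library of 4 segments and a dashed line at equal values. The 7 OMCD points lie above the line, and the 6 CNT points and 10 of 11 CCD points lie below it.

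Within a segment the genes did not all vary together. Over the 11 CCD libraries Rhcg and Rhbg had Pearson's r = 0.834 and Spearman's rho = 0.818 on the log2 scale (r = 0.749 without the 2 libraries farthest from the median of the first gene), and Slc4a9 and Insrr had r = 0.758 and rho = 0.936 (r = 0.903 without 2). Slc4a1 and Slc26a4 had r = 0.396 and rho = 0.191 (r = 0.372 without 2), and Slc4a1 and Hmx2 r = -0.276 and rho = -0.318 (r = -0.184 without 2). Over the 7 OMCD libraries Insrr and Hmx2 had r = 0.848 and rho = 0.927 (r = 0.995 without 2). The highest r there joined Slc4a9, of type B cells, and Rhbg, at r = 0.954 and rho = 0.929 (r = 0.912 without 2). Slc4a1 and Slc26a7, both of type A cells, had r = -0.650 and rho = -0.750 there (r = -0.387 without 2). This used the first table's Slc26a7 values, such as 3.35 and 5.93 RPKM in OMCD replicates 1 and 7. The second table had 0 and 12.7 RPKM there, and its correlation was not computed. Over the 6 CNT libraries Slc4a1 and Slc26a4 had r = 0.964 and rho = 0.771 (r = 0.966 without 2). These are a few of 45 pairs each in CNT and CCD and 36 in OMCD, given as descriptions with no p, of libraries that also share differences in depth.

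Over all tubule libraries the gene most alike in pattern was another of the 10 for 6 of them. Hmx2 was the gene most like Slc26a4 (Pearson's r = 0.946 over libraries and 0.991 over the 14 segment means), Slc4a9 the most like Insrr (0.914 and 0.969) and Rhbg the most like Rhcg (0.922 and 0.970). Slc4a1 and Foxi1 were both nearest to Aqp6, a water channel of vesicles in type A cells (0.914 and 0.907 over libraries, 0.992 and 0.979 over segment means). Among principal cell genes, the epithelial sodium channel subunit Scnn1g was among the 5 nearest to Slc4a1 (0.832), Slc26a4 (0.892) and Foxi1 (0.900), and the potassium channel subunit Kcne1 was second to Slc26a4 for Hmx2 (0.920). Hmx3 was nearest to Rprm, a cell cycle inhibitor (0.783), and Slc26a7 to the phospholipase Plce1, at 0.583 only. The libraries of a segment share a source, and these values include the differences between segments.

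Other genes known from intercalated cells were read from a list of 25, of which 23 were in the table and 21 were tested. From DCT to CNT 9 were higher and 0 lower in CNT, at a median of 1.98, and the largest differences were those of the proton pump subunit Atp6v1g3 (6.37 ± 0.85), the carbonic anhydrase Car2 (6.22 ± 1.09), the pump subunit Atp6v1c2 (5.42 ± 0.79) and the membrane protein Hepacam2 (5.32 ± 0.74). From CNT to CCD 0 of 21 were called. From CCD to OMCD 1 was higher, the UDP-glucose receptor P2ry14, which had 168 RPKM as its OMCD median against 11.4 RPKM in CCD (3.86 ± 0.66; adjusted p = 4.2e-05). The only gene lower in OMCD was Oxgr1, the oxoglutarate receptor of type B cells, at medians of 1.03 RPKM in OMCD and 33.5 RPKM in CCD (-2.70 ± 0.62; adjusted p = 0.0067). From OMCD to IMCD 14 were lower and 0 higher in IMCD, led by the carbonic anhydrase Car15 (-7.98 ± 1.05), Atp6v1g3 (-7.76 ± 0.81), Aqp6 (-6.87 ± 0.64) and the pump subunit Atp6v1b1 (-6.14 ± 0.77).

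Genes from lists made for other cells were called at the same boundaries. Of 13 principal cell genes 9 were higher and 0 lower in CNT than in DCT, with summed levels of 1447 to 12840 RPKM in CNT libraries and 168.5 to 945 RPKM in DCT libraries. In OMCD against CCD 1 was higher and 2 were lower, Kcne1 (-4.25 ± 0.52) and the transcription factor Gata2 (-3.20 ± 0.71), while Aqp2 had medians of 4608 RPKM in OMCD and 6776 RPKM in CCD. Of 8 leukocyte genes 2 were lower in CNT than in DCT, the complement subunits C1qa and C1qb, and the list summed to 7.71 to 153 RPKM in CNT and to 69.4 to 1504 RPKM in DCT. Of 4 tested genes of the DCT and CNT 2 were higher in CNT than in DCT, Calb1 (3.77 ± 1.1) and Trpv5 (1.79 ± 0.33). Slc12a3 was lower there (-7.50 ± 0.50). Calb1 (-5.7 ± 1.0) and Trpv5 (-1.87 ± 0.31) were lower in CCD than in CNT. In OMCD against CCD 2 of the 4 were lower, with sums of 0.175 to 70.9 RPKM in OMCD and 3.33 to 1912 RPKM in CCD. Thick limb genes were lower in CNT than in DCT in 2 of 4, with sums of 0.423 to 87.3 RPKM in CNT and 232 to 1916 RPKM in DCT. In IMCD against OMCD 4 principal cell genes were lower, Hsd11b2 (-6.50 ± 0.75), Scnn1g (-4.48 ± 0.62), Scnn1b (-4.27 ± 0.77) and Kcnj1 (-3.85 ± 0.66), and 3 were higher, Gata2, Elf5 and Aqp4, with sums of 6356 to 24590 RPKM in IMCD and 5112 to 26650 RPKM in OMCD. The thick limb gene Umod was also lower in IMCD (-3.42 ± 1.06). Of the 4 genes of the thin limb list 2 were higher in IMCD, Slc14a2 and Akr1b1. Their means were 388 and 8593 RPKM in IMCD and 14.3 and 60.9 RPKM in LDLOM. Whether their RNA came from thin limb cells or from the collecting duct itself was not tested. The thin limb list summed to medians of 8509 RPKM in LDLIM and 8033 RPKM in tAL, against 1449 RPKM in LDLOM. Levels of Slc14a2 and Akr1b1 alone in LDLIM and tAL were not compared. Aqp1, at a mean of 1683 RPKM in LDLOM, had 1.13 RPKM in IMCD and 0.360 RPKM in OMCD (0.38 ± 1.04; adjusted p = 0.92). The part of these cells in the differences of the 10 genes was not tested. With the number of genes per library as a covariate, all 6 calls of OMCD against CCD and all 8 of IMCD against OMCD were kept.

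Under ddAVP, none of the 9 genes that could be tested in CCD passed the test for a difference with the water load (limma, adjusted p under 0.05 with no limit on size). Over all 8490 genes tested 0.0942% were higher and 0.0589% lower, 0.153% or 13 in all, and 632 had an unadjusted p under 0.05, as did 2 of the 9, Hmx2 and Rhbg. Hmx2 came nearest, with 461, 679, 539 and 511 RPKM in rats with the water load, against 1056, 950, 1034 and 1164 RPKM in control rats. The 2 groups did not overlap, which held for 2.10% of all genes with every water-load library below and for 2.18% with every one above. The difference was -0.95 ± 0.25 (unadjusted p = 0.0020; adjusted p = 0.25). The summed principal cell genes stood at 8395 to 15400 RPKM with the water load and 15150 to 25140 RPKM in controls, ranges that just overlapped, with 0 of 12 called, and their part in the Hmx2 values was not tested.

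The ammonia channel Rhbg had 620, 790, 1032 and 1729 RPKM with the water load and 301, 334, 604 and 907 RPKM in controls. The groups overlapped, and the difference was 1.00 ± 0.40 (adjusted p = 0.61). Rhcg had 813, 749, 802 and 1095 RPKM with the water load, against 523, 502, 407 and 1039 RPKM in controls (0.57 ± 0.31, adjusted p = 0.74). Residuals of libraries with the same replicate number in both groups correlated at 0.209 to 0.313. Correlations of differently numbered libraries were not computed, and the labels do not call equal numbers pairs. As an alternative, the fit was repeated with the number as a block. It called 29 genes, 0.342%, and still 0 of the 9, with adjusted p = 0.074 for Rhbg and 0.116 for Hmx2, the lowest over the alternatives run for each, whose highest was 0.918 for both.

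The exchangers of the water-load experiment overlapped between the groups. Slc4a1 had 148, 273, 383 and 230.4 RPKM with the water load and 129, 191, 320.0 and 128 RPKM in controls (0.45 ± 0.36, adjusted p = 0.84). Slc26a4 had 603, 810.2, 959 and 1198 RPKM with the water load and 905, 1076, 919 and 1005 RPKM in controls (-0.17 ± 0.28; adjusted p = 0.94). The differences of Slc4a9 (-0.19 ± 0.45), Insrr (-0.02 ± 0.27), Foxi1 (-0.08 ± 0.29) and Hmx3 (-0.43 ± 0.46) were no larger than about 1 standard error. Slc26a7, too low to be tested, had 0.0765, 0, 1.51 and 0.0482 RPKM with the water load and 0, 0, 0.0620 and 0.0729 RPKM in controls. Of the 20 other intercalated cell genes tested 0 were called. In all 8 libraries Slc26a4 was above Slc4a1, as in 10 of the 11 CCD libraries of the segment experiment.

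**Figure D5:**
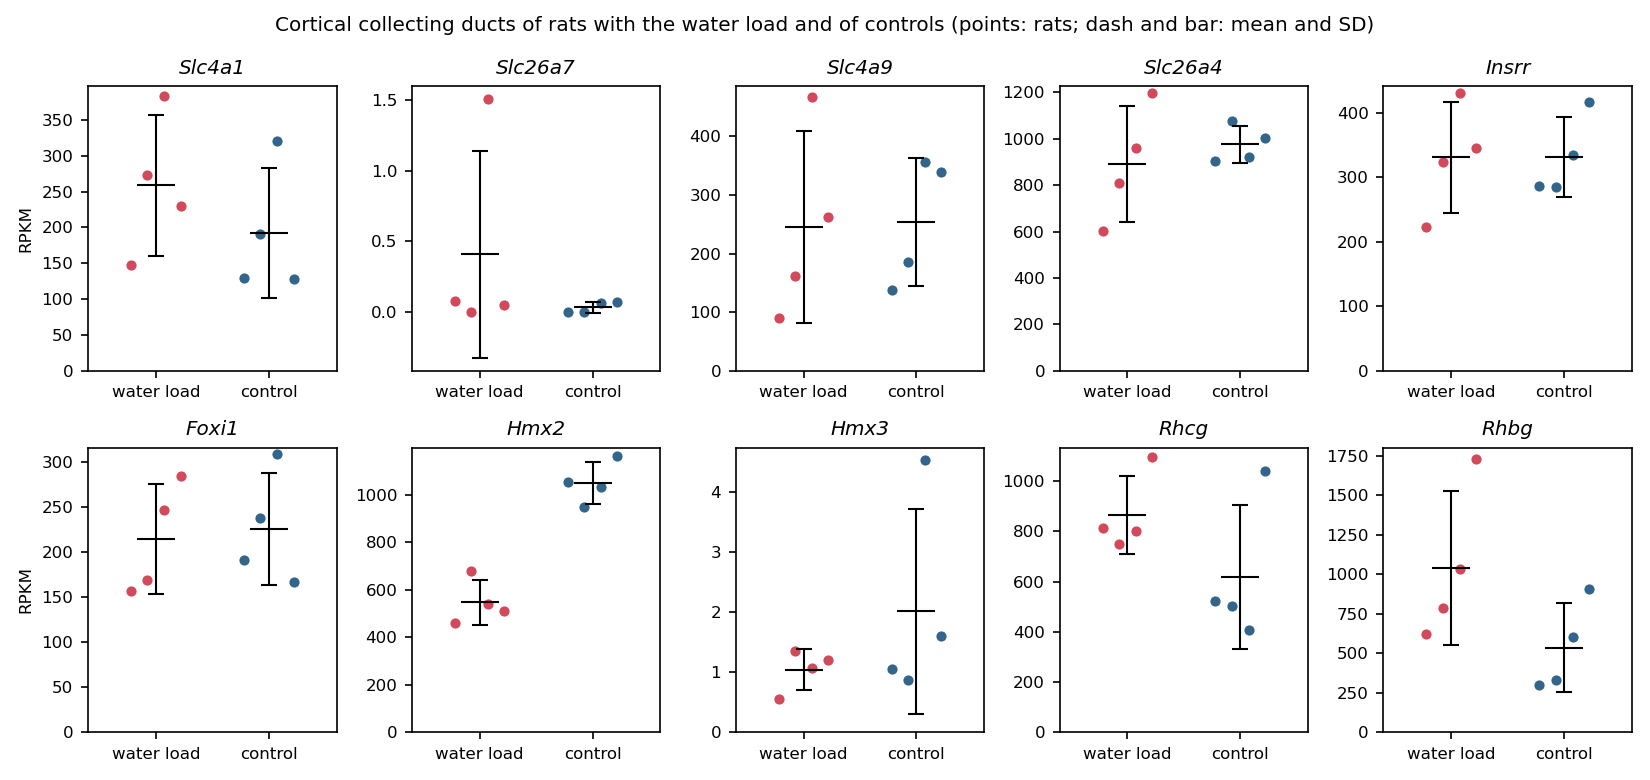
RPKM of the 10 genes in cortical collecting ducts of the 4 rats with the water load (left of each panel) and of the 4 controls (right), with 1 point per rat and the mean and SD as dash and bar. Hmx2 is the gene whose groups do not overlap, at 461 to 679 RPKM with the water load and 950 to 1164 RPKM in controls.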

How the data were processed

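RPKM values of the authors were used as deposited, in 2 tables of the segments and glomeruli and 1 of the water-load experiment; the authors' scaling and gene models are known only as far as the labels give them. Per the submitters' processing notes, the build was rn5 and the tools were HOMER, SAMtools, STAR 2.3.0-r192 and Trimmomatic 0.32. Their roles and settings are not stated there. Reads were paired and 50 nt long, from a protocol for single cells, per the labels' protocols. No source used here gives the strand setting of the counting, or how polyadenylation-site data entered the first table, the main one here. The second table's glomeruli were not used.

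For 503 symbols with several transcripts the one with the highest mean was kept. Values were taken as log2(RPKM + 1); a gene entered a fit when 4 or more of its libraries reached 1 RPKM, and limma 3.58.1 was used (R 4.3.3; trended, two-sided, Benjamini-Hochberg). All tubule libraries shared 1 fit; the 8 water-load libraries had their own. Fold changes on this scale understate those of low genes. The genes, lists and tests were chosen with earlier results of these data known. The text names the 10 genes, the 5 most alike to each (in part), and up to 4 called genes of a list by size. The tables give no read totals, so no counting intervals are given. Residuals of equally numbered libraries correlated at -0.20 to 0.31 between segments, so numbers were not taken as pairs there, and at 0.209 to 0.313 in the water-load experiment. No 2 libraries shared more than 0.015% of values. Alternatives were quantile normalization, a pseudocount of 0.1, no filter on low values, the replicate block, the second table, leaving out libraries under 2500 genes or single libraries, the number of genes as a covariate, both groups alone and array quality weights. Tables and plots used Python 3.11.15, numpy 2.4.6, pandas 2.3.3, scipy 1.17.1 and matplotlib 3.10.9. The fits were tested on simulated data with known changes, of which they missed a part.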

Additional observations from a re-analysis of the deposited data

Results flagged for a closer look

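In 5 of 51 groups of 4 to 10 libraries, 1 library stood apart from the rest by Dixon's 95% limit on the log2(RPKM + 1) scale. About 1 in 20 groups would do so if their values were normally distributed. Groups with several libraries at or near 0 are not, so that rate does not hold for them. Rhcg was at 1023 RPKM in OMCD replicate 5, where the next library had 248 RPKM. Hmx2 was at 18.8 RPKM in DCT replicate 2, against at most 2.84 RPKM in the other 7, and Insrr at 2.09 RPKM in DCT replicate 8, against at most 0.0602 RPKM. Slc26a7 was at 1.62 RPKM in IMCD replicate 7, against at most 0.171 RPKM, and at 1.51 RPKM in water-load rat 3, against at most 0.0765 RPKM. DCT replicate 2 also held the highest DCT values of Slc26a4 and Foxi1, at 22.1 and 11.9 RPKM.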

How the results depend on the processing

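The counts of genes of the set called stayed within 1.5 times in the settings run for CNT against DCT (7 or 8), OMCD against CCD (5 or 6), IMCD against OMCD (7 or 8), the upstream comparison (8 to 10) and water load (0). For CCD against CNT the 1 call became 0 with a pseudocount of 0.1, quantile normalization, the replicate block, the second table, without libraries under 2500 genes and with both groups alone, and ranged from 0 to 1 without single libraries. No call reversed. Blocking by replicate number, as pairs, changed no other call of the set. Over all genes, CNT against DCT gave 136 with both groups alone (238 in the shared fit). CCD against CNT gave 2, 15, 5 and 2 with a pseudocount of 0.1, quantile normalization, without sparse libraries and alone (8), and 5 without CCD replicate 11 or 17 without CNT replicate 6. OMCD against CCD gave 47, 57 and 72 with quantile normalization, the covariate and alone (144), and 69 to 387 without single libraries; 26 of 47 and 15 of 57 calls were higher under the first 2, against 9 of 144. IMCD against OMCD gave 371 alone (828), with 373 of 564 calls higher under the covariate. The OMCD range moved past 1.5 times without OMCD replicates 1, 3 and 4 (71, 69 and 86) and without OMCD replicate 5 and CCD replicates 2 and 8 (387, 240.0 and 220.0). Water load gave 0, 0, 29 and 25 with a pseudocount of 0.1, no filter, the block and quality weights (13), and 0 to 7 without single rats. The causes were not tested.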
